A study of Mus musculus with 4 samples.

Results

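Rln3 and Il27ra are 2 of the 32285 genes counted in single-cell RNA libraries of mouse thymic invariant natural killer T (iNKT) cells, and they lie next to each other on chromosome 8. They were taken by symbol from the gene list of the files, because they adjoin and because Rln3 had more unique molecular identifiers (UMIs) in BALB/c than in B6 libraries. The strain difference of Rln3 therefore chose the pair and is given below as a description, without a test. The strain difference of Il27ra, the levels of both genes in the cell classes and their detection in the same cells were not used in that choice. The cells were live-sorted from the thymus of BALB/c mice and of B6 mice as CD3-positive cells that bound PBS57-loaded CD1d (PBS57 is a glycolipid), and were profiled with a droplet-based 5' kit in 2 libraries per strain. BALB/c is the strain set against B6 here, and no treatment, allele or age is named in the labels. Whether the 2 libraries of each strain are from different mice is not stated. The p-values of strain differences therefore measure the spread between libraries, which may be partly technical. Those of fits with the library as a block measure how far a difference within libraries varied between them. In such fits each library supplied both sides, and only 2 libraries entered the fits within a strain.

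Il27ra encodes the ligand-binding chain of the receptor for interleukin-27, a cytokine made by antigen-presenting cells that shapes T cell responses. The chain signals together with gp130, the product of Il6st, through Janus kinases to transcription factors that include STAT3. Rln3 encodes relaxin-3, a small secreted peptide of the insulin and relaxin family that is known mainly as a neuropeptide of the brainstem, where it acts through the receptor Rxfp3. iNKT cells recognise lipids on CD1d and mature in the thymus into iNKT1 cells (Tbx21, Ifng), iNKT2 cells (Zbtb16, Il4) and iNKT17 cells (Il17a).

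In GENCODE vM21 on mm10, the build named by the submitters, both genes are on the minus strand. Rln3 (ENSMUSG00000045232) spans chromosome 8, 84042929 to 84045000, and Il27ra (ENSMUSG00000005465) spans 84030294 to 84042589. Transcription of Rln3 runs towards Il27ra, and 339 bases separate the end of Rln3 from the start of Il27ra. The starts of the genes are 2411 bases apart. Rln3 has 2 exons and the longest Il27ra transcript has 14. No exonic base is shared between them, so a read within annotated exons can be given to only 1 of the genes, while Palm3, on the plus strand, overlaps the last exon of Il27ra by 2 bases. The Rln3 promoter is shown because the strain difference of Rln3 chose the pair. The table gave no entry for Il27ra. The 300 bases (250 before and 50 after the annotated start) are those of RefSeq on GRCm38.p6, a C57BL/6J assembly, at chr8:84044930-84045229 on the minus strand, and no BALB/c sequence was used here. The RefSeq start lies downstream of the GENCODE start at 84045000, and positions in the promoter are counted from the RefSeq start.
Rln3: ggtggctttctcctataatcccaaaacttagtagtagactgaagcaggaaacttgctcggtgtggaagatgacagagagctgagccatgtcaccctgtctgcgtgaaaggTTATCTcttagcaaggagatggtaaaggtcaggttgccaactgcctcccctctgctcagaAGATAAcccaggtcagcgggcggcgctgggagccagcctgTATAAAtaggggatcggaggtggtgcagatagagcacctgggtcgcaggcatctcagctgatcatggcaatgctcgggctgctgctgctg
The capitals mark 3 matches: TTATCT, which is the reverse complement of the second, then AGATAA, which holds the core bound by factors of the Gata family, and last TATAAA, the core promoter element named after it, whose first base lies at -40 from the start. Both strands were searched. TATAAA is found in 13.6% of 32851 mouse promoters of the same length and AGATAA in 11.2% of them. The T-box half-site GGTGTG is found in 19.05% and the E-box CANNTG in 72.3%. This promoter holds 1 match to the T-box half-site and 3 to the E-box besides those in capitals, and no match overlaps another. A match describes the letters only and is not evidence of binding.

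The libraries held 2038 and 2056 barcodes for BALB/c 1 and BALB/c 2, and 2494 and 9732 for B6 1 and B6 2, with 22798414 to 23124810 UMIs in the BALB/c libraries and 20406245 to 82904358 in the B6 libraries. After filtering, 1864 and 1913 BALB/c cells and 2328 and 8790 B6 cells were kept, with medians of 9131 to 11003.5 UMIs per BALB/c cell and 6922.5 to 7016 per B6 cell. Library pairs shared 4 to 33 barcode sequences. The file headers name an older Cell Ranger version for B6 1 than for B6 2, and the part of this in the results was not tested. Among lists of other cell types, gamma-delta T cell genes summed to 642 and 473 counts per 1000000 UMIs (CPM) in BALB/c and 298 and 291 CPM in B6, B cell genes to 63.4 and 126 CPM in BALB/c and 224 and 137 CPM in B6, and myeloid genes to 230.1 and 364 CPM in BALB/c and 427 and 292 CPM in B6. Genes of double-positive thymocytes summed to 263 and 416 CPM in BALB/c and 424 and 270 CPM in B6, and regulatory T cell genes to 150 and 145 CPM in BALB/c and 77.2 and 146 CPM in B6. No gene of the 5 lists was at 0 in all libraries. Their part in the results was not tested.

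Over all kept cells, Rln3 stood at 70.3 and 53.5 CPM in BALB/c 1 and BALB/c 2, from 1579 and 1191 UMIs, against 6.50 and 6.34 CPM in B6 1 and B6 2, from 128 and 470 UMIs. Both BALB/c libraries lay far above both B6 libraries, and the B6 libraries were close to each other. The means were 61.9 ± 11.9 CPM in BALB/c and 6.42 ± 0.109 CPM in B6 (SD, n = 2 each), and the log2 fold change of BALB/c over B6 was 3.31 (SE 0.17). An Rln3 UMI was found in 24.6% and 19.2% of BALB/c cells and in 3.01% and 2.58% of B6 cells. After thinning of every cell to 3000 UMIs, which left out the 161 to 221 shallower BALB/c cells and the 360 to 1027 shallower B6 cells of a library, the shares were 14.9% and 10.5% in BALB/c, against 1.78% and 1.49% in B6. In such sums over all cells, fewer cells that express a gene and less RNA per cell cannot be told apart. Single cells held up to 35 and 29 Rln3 UMIs in BALB/c and up to 7 and 15 in B6.

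Il27ra stood at 325 and 276 CPM in BALB/c and at 196 and 198 CPM in B6, from 7300 and 6129 UMIs in BALB/c and 3866 and 14665 UMIs in B6. The strains did not overlap, and the BALB/c libraries differed from each other more than the B6 libraries did. The means were 300.3 ± 35.0 CPM in BALB/c and 197 ± 1.19 CPM in B6 (SD, n = 2 each). Il27ra was higher in BALB/c, with a log2 fold change of 0.64 (SE 0.10) and an adjusted p of 0.0423 in edgeR's quasi-likelihood test with Benjamini-Hochberg adjustment. In the same fit 7.28% of 12878 genes were called in either direction, with 3.64% called higher and 3.63% called lower in BALB/c. With the replicate numbers as a block, the call of Il27ra was lost, in a fit that called 117 genes higher and 147 lower. The call was lost without BALB/c 1 (log2 fold change 0.53, adjusted p = 0.432 in edgeR) and without BALB/c 2 (0.75, adjusted p = 0.251 in edgeR), where the lone BALB/c library is assumed to vary as the B6 libraries do. These 2 fits called 0 of 13723 and 0 of 13721 genes in edgeR, with 1400 and 1644 at an unadjusted p under 0.05, so every call over all cells was lost in them. An Il27ra UMI was found in 82.9% and 78.1% of BALB/c cells and in 69.1% and 69.9% of B6 cells, or in 61.2% and 54.4% of BALB/c cells and 43.6% and 43.6% of B6 cells after thinning.

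Of the UMIs of the pair, Rln3 supplied 17.8% (95% exact binomial interval 17.0 to 18.6%) and 16.3% (15.4 to 17.1%) in BALB/c and 3.20% (2.68 to 3.80%) and 3.11% (2.83 to 3.39%) in B6. These intervals, like all binomial and count-ratio intervals here, cover counting error only. The mean share was 13.9 percentage points higher in BALB/c, given without a test because it rests on the strain difference of Rln3. The neighbours thus did not differ between the strains in proportion to each other: Rln3 differed 9.72-fold and Il27ra 1.52-fold in CPM summed over libraries.

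Cells were clustered without Rln3, Il27ra and the other genes within 250 kb, and clusters were named from marker lists. The iNKT1-like class held 282 and 605 BALB/c cells and 1368 and 4142 B6 cells, the iNKT2-like class 889 and 707 BALB/c cells and 219 and 1156 B6 cells, and the iNKT17-like class 320 and 185 BALB/c cells and 68 and 160 B6 cells. The class mix thus differed between the strains, with the iNKT2-like class the most numerous in both BALB/c libraries and the iNKT1-like class the most numerous in both B6 libraries.

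In BALB/c, Rln3 was at similar levels in iNKT17-like cells (85.0 and 73.9 CPM) and iNKT2-like cells (81.7 and 71.0 CPM), whose ranges overlapped, and at 46.3 and 34.5 CPM in iNKT1-like cells. Proliferating cells followed at 24.1 and 19.9 CPM, iNKT0-like cells, the earliest iNKT stage, had 2.24 and 0.97 CPM, and double-positive thymocyte-like cells had no Rln3 UMI. None of the neighbours in this order below the iNKT2-like class overlapped each other. In B6, the order was different, with 10.8 and 8.94 CPM in iNKT1-like cells and 3.14 and 6.36 CPM in iNKT2-like cells. These iNKT2-like values came from 12 and 123 UMIs. B6 iNKT17-like cells had no Rln3 UMI in 68 and 160 cells, which allows a share of up to 4.41% and 1.88% of cells with a UMI, at medians of 12044.5 and 11118 UMIs per cell. B6 iNKT0-like cells had 0 and 1.91 CPM, and B6 proliferating cells had 0.844 and 0 CPM.

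Within classes, the Rln3 values of BALB/c lay above those of B6 in iNKT17-like, iNKT2-like, iNKT1-like and proliferating cells, and the strain values overlapped in iNKT0-like and double-positive thymocyte-like cells, where nearly no UMI was found in either strain. In CPM summed over libraries, BALB/c exceeded B6 4.04-fold in iNKT1-like cells (95% interval 3.42 to 4.78) and 13.2-fold in iNKT2-like cells (11.1 to 15.8). In proliferating cells the ratio was 76.5 (20.5 to 642), from only 2 B6 UMIs. In iNKT17-like cells Rln3 was at least 76.7-fold higher in BALB/c, set against a floor of 3 counts over both B6 libraries. That bound depends on the classes: with each cell given the class of its highest marker score, B6 iNKT17-like cells held 56 Rln3 UMIs and the fitted log2 fold change was 3.48 (SE 0.46). The fitted log2 fold changes were 2.05 (SE 0.22) in iNKT1-like and 3.93 (SE 0.22) in iNKT2-like cells.

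The share of cells with an Rln3 UMI was 34.4% and 31.3% of BALB/c and 1.83% and 3.29% of B6 iNKT2-like cells, 28.8% and 27.0% of BALB/c and 0% and 0% of B6 iNKT17-like cells, and 16.7% and 14.2% of BALB/c and 4.46% and 3.45% of B6 iNKT1-like cells. Double-positive thymocyte-like cells, taken as cells that should lack the transcript, had an Rln3 UMI in 0 of 163 and 0 of 170 BALB/c cells and in 0 of 165 and 1 of 303 B6 cells. Their medians of 1998 and 2802 UMIs per BALB/c cell, against 2313 and 2675 per B6 cell, were far below those of iNKT2-like cells, at 14997 and 15478 per BALB/c cell, against 15556 and 15468 per B6 cell. The BALB/c shares are above the 1.84% and 1.76% that those counts of 0 allow. Those limits hold only at the lower depth of the double-positive thymocyte-like cells. After thinning, 23 and 68 of these BALB/c cells were deep enough, and 0 and 0 of them held an Rln3 UMI. The thinned BALB/c shares were 18.1% and 14.2% in iNKT2-like, 16.8% and 16.8% in iNKT17-like and 9.43% and 7.97% in iNKT1-like cells. Whether these exceed a limit at equal depth was not tested. The share in the iNKT2-like cells of B6 1, 1.83%, rested on 4 cells, 3 of them with 2 or more UMIs. The count of 0 in the double-positive thymocyte-like cells of that library allows up to 1.82%. At these cell numbers and depths, the share could not be told apart from that limit.

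**Figure D1:**
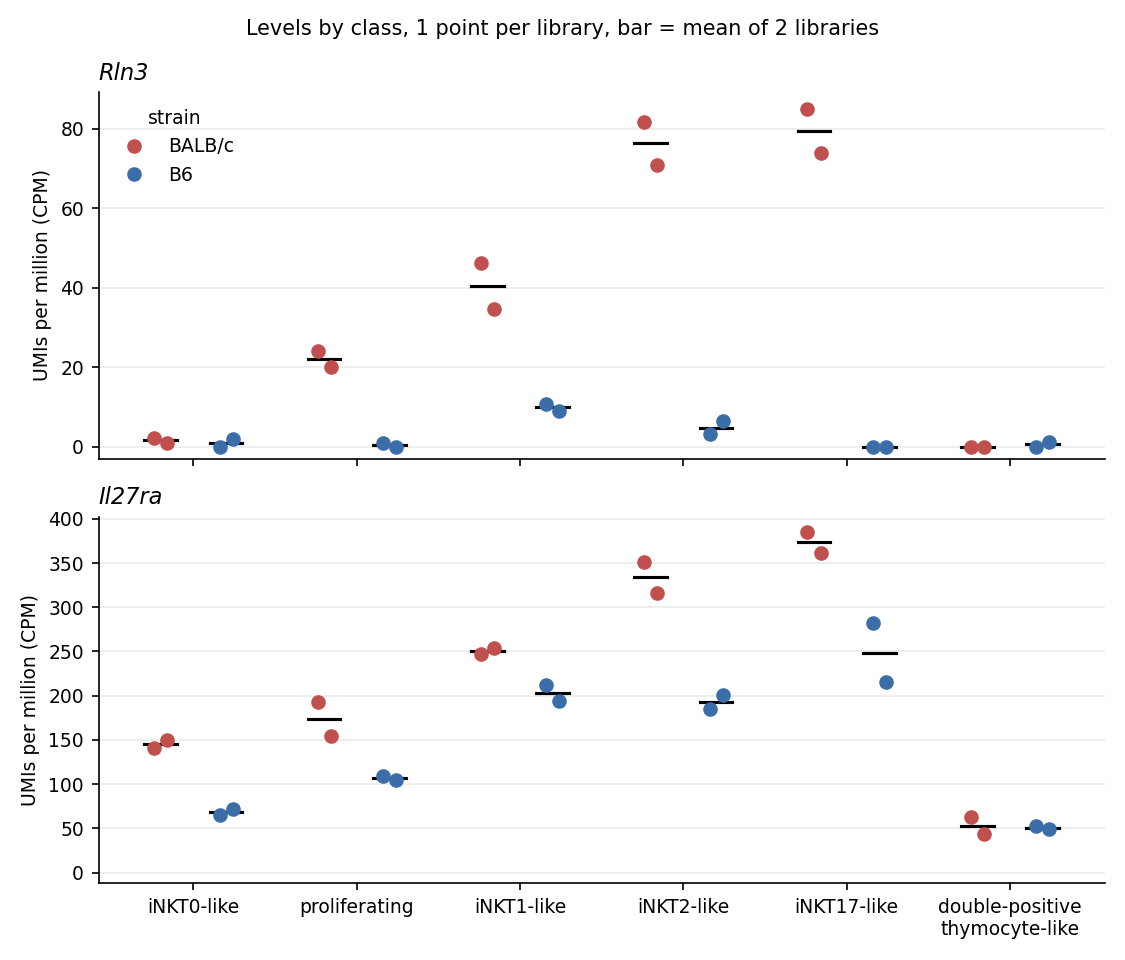
Levels of Rln3 (upper panel) and Il27ra (lower panel) in CPM by cell class, with BALB/c left of B6 in each class, 1 point per library and a bar at the mean of 2 libraries. Rln3 reaches 85.0 CPM in BALB/c iNKT17-like cells, against 0 in those of B6, while Il27ra is present in every class of both strains, from 43.2 to 385 CPM in BALB/c and 48.7 to 282 CPM in B6.

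Il27ra was found in every iNKT class of both strains. In BALB/c, its levels were 385 and 361 CPM in iNKT17-like, 352 and 317 CPM in iNKT2-like, 247 and 254 CPM in iNKT1-like, 193 and 154 CPM in proliferating, 141 and 150 CPM in iNKT0-like and 63.2 and 43.2 CPM in double-positive thymocyte-like cells. No neighbours in this order overlapped. In B6, iNKT17-like cells had 282 and 215 CPM, iNKT1-like cells 212 and 194 CPM and iNKT2-like cells 185 and 201 CPM, and the last pair overlapped. Proliferating cells of B6 had 109 and 105 CPM, iNKT0-like cells 65.4 and 72.0 CPM and double-positive thymocyte-like cells 52.7 and 48.7 CPM. The few B cell-like cells had 12.8 and 21.1 CPM in BALB/c and 4.44 and 0 CPM in B6.

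Between the strains, Il27ra was higher in BALB/c in iNKT2-like cells (log2 fold change 0.89, SE 0.09, adjusted p = 0.00516 in edgeR's quasi-likelihood test with Benjamini-Hochberg adjustment), where 11.0% of genes were called in either direction. It was also higher in BALB/c iNKT0-like cells (1.15, SE 0.18, adjusted p = 0.0289 in edgeR), where only 0.904% of genes were called. The test was not passed in iNKT1-like cells (0.33, adjusted p = 0.257 in edgeR; 4.24% of genes called), iNKT17-like cells (0.59, adjusted p = 0.132 in edgeR; 4.51% called), proliferating cells (0.73, adjusted p = 0.0540 in edgeR; 1.95% called) and double-positive thymocyte-like cells (0.05, adjusted p = 0.992 in edgeR; 1.38% called). In the iNKT0-like, iNKT17-like, iNKT2-like, iNKT1-like and proliferating classes, both BALB/c values lay above both B6 values; the double-positive thymocyte-like values overlapped. The calls in iNKT2-like and iNKT0-like cells were lost when either BALB/c library was left out, with edgeR adjusted p-values of 0.156 and 0.102 in iNKT2-like and 0.132 and 0.216 in iNKT0-like cells without BALB/c 1 and without BALB/c 2. The log2 fold changes stayed at 0.83 and 0.96 in iNKT2-like and 1.21 and 1.10 in iNKT0-like cells. The test was passed without B6 1 in iNKT1-like (0.46, adjusted p = 2.08e-06 in edgeR), iNKT17-like (0.86, adjusted p = 1.61e-09) and proliferating cells (0.81, adjusted p = 7.66e-05), and without B6 2 in proliferating cells (0.67, adjusted p = 0.0128). The fits without B6 1 called more of all genes too, with 1576 higher and 1914 lower in iNKT1-like cells, for example, in place of 252 and 198.

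To ask whether each gene differed between classes, the sums of the iNKT17-like, iNKT2-like and iNKT1-like classes of a library were compared with the library as a block. With the 4 libraries together, Il27ra was higher in iNKT17-like than in iNKT1-like cells (log2 difference 0.30, SE 0.11, adjusted p = 0.0458 in edgeR's quasi-likelihood test with Benjamini-Hochberg adjustment; 42.7% of genes called), a call that was lost without BALB/c 1 (0.24, adjusted p = 0.142) and without BALB/c 2 (0.28, adjusted p = 0.150). The differences of iNKT2-like against iNKT1-like (0.17, adjusted p = 0.187 in edgeR; 55.6% of genes called) and iNKT17-like against iNKT2-like cells (0.13, adjusted p = 0.415; 33.4% called) did not pass. Rln3 passed in none of the 3 contrasts over the 4 libraries, with log2 differences of 0.18, 0.08 and -0.11 and edgeR adjusted p-values of 0.722, 0.932 and 0.888 for iNKT2-like against iNKT1-like, iNKT17-like against iNKT1-like and iNKT17-like against iNKT2-like cells. The first of these turned negative without either BALB/c library (-0.08 and -0.23), as did the second (-0.29 and -0.41).

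Because the strains differed, the same contrasts were also fitted within each strain, a choice made after seeing the data. In BALB/c, Rln3 was higher in iNKT2-like than in iNKT1-like cells (log2 difference 0.97, SE 0.10, adjusted p = 5.78e-09 in edgeR) and higher in iNKT17-like than in iNKT1-like cells (0.87, SE 0.12, adjusted p = 8.27e-07 in edgeR), whereas iNKT17-like and iNKT2-like cells did not pass (-0.11, adjusted p = 0.334). BALB/c Il27ra had the same pattern of calls, at 0.42 in both the iNKT2-like (adjusted p = 1.24e-06) and the iNKT17-like contrast with iNKT1-like cells (adjusted p = 6.09e-06), and -0.00 between iNKT17-like and iNKT2-like cells (adjusted p = 0.987). In B6, Rln3 was lower in iNKT2-like than in iNKT1-like cells (-0.81, SE 0.22, adjusted p = 0.00455 in edgeR), the opposite direction to BALB/c. The B6 difference rested on 12 UMIs in 4 iNKT2-like cells of B6 1 and 123 UMIs in 38 cells of B6 2. For B6 1, the share of such cells could not be told apart from the limit given above. Il27ra of B6 passed none of the contrasts, with -0.09 for iNKT2-like against iNKT1-like (adjusted p = 0.336), 0.17 for iNKT17-like against iNKT1-like (adjusted p = 0.192) and 0.25 for iNKT17-like against iNKT2-like cells (adjusted p = 0.0670).

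The difference between these strain effects was fitted as an interaction over 8 sums. The strain effect on Il27ra was larger in iNKT2-like than in iNKT1-like cells by 0.50 (SE 0.09) on the log2 scale, with an adjusted p of 0.000319 in edgeR's quasi-likelihood test, where 10.3% of genes were called. That call was lost with finer clusters (0.26, adjusted p = 0.193). There the iNKT2-like class left out a cluster led by Rln3, described below, and the part of this was not tested. For Rln3, whose strain difference chose the pair, the same term was 1.72 (SE 0.21), given without a test; it was 2.77 without B6 2. Different clusters held most of these classes in each strain. Of the iNKT2-like cells, a first cluster held 873 and 691 BALB/c cells and 96 and 51 B6 cells, and a second held 16 and 16 BALB/c cells and 123 and 1105 B6 cells. In the first, Rln3 stood at 83.6 and 73.3 CPM in BALB/c and at 8.74 and 75.6 CPM in B6, where the value of B6 2 came from 38 UMIs in 7 of 51 cells. In the second, B6 had 0 and 4.51 CPM. The main BALB/c cluster of iNKT1-like cells (265 and 578 cells in BALB/c, 20 and 1 in B6) had Rln3 at 45.8 and 35.0 CPM in BALB/c and at 73.6 CPM in the 20 cells of B6 1, from 9 UMIs. The few B6 cells that fell in mostly BALB/c clusters therefore did not all have the low Rln3 level of their library.

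At a finer clustering (Leiden resolution 1.5), a cluster emerged whose leading gene was Rln3, ahead of Sox13 and Hey1, although Rln3 had not been used to form it. It scored highest for the gamma-delta T cell list, but Trdc, the constant segment of the delta chain, had 0 UMIs in its cells of all 4 libraries, so it is called here by its leading genes. It held 413 and 314 BALB/c cells, 22.2% and 16.4% of the kept cells, and 26 and 23 B6 cells, 1.12% and 0.262% of them. Rln3 stood at 128 and 111 CPM in its BALB/c cells and at 41.1 and 152 CPM in its B6 cells, where it rested on 14 and 33 UMIs. This cluster alone held 47.3% and 45.0% of the Rln3 UMIs of the BALB/c libraries and 10.9% and 7.02% of those of the B6 libraries. The adjoining iNKT2-like cluster led by Il21 (387 and 310 BALB/c cells, 30 and 13 B6 cells) had 58.0 and 53.5 CPM in BALB/c and 11.0 and 32.4 CPM in B6, and the largest B6 cluster of iNKT2-like cells (13 and 16 BALB/c cells, 105 and 973 B6 cells) had 0 and 0 CPM in BALB/c and 0 and 3.44 CPM in B6. Il27ra differed less between these clusters, at 410 and 363 CPM in the BALB/c and 282 and 294 CPM in the B6 cells of the Rln3-led cluster, and 328 and 298 CPM in the BALB/c and 167 and 156 CPM in the B6 cells of the Il21-led cluster.

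The genes also differed in how their UMIs were spread over cells. If each cell of a class drew UMIs at the level of its class and in proportion to its own depth, 69.0% and 65.8% of BALB/c iNKT2-like cells would hold an Rln3 UMI, but 34.4% and 31.3% did. In BALB/c iNKT17-like cells 28.8% and 27.0% held a UMI, where 60.0% and 58.1% would from depth, and in iNKT1-like cells 16.7% and 14.2% did, where 25.4% and 21.0% would. Rln3 was thus concentrated in part of the cells of each class. In B6, 4.46% and 3.45% of iNKT1-like cells held a UMI, where 7.69% and 6.24% would, and 3.29% of the iNKT2-like cells of B6 2 did, where 9.99% would. Il27ra lay close to the level from depth, at 98.2% and 97.5% of BALB/c iNKT2-like cells, where 98.1% and 97.7% would, and at 90.0% and 90.3% of B6 iNKT2-like cells, where 90.6% and 92.4% would.

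Cells with Rln3 held 3.73 and 3.74 Rln3 UMIs on average among iNKT2-like cells of BALB/c, 3.38 and 3.40 among iNKT17-like cells and 1.79 and 1.67 among iNKT1-like cells of BALB/c, and 1.80 and 1.87 among iNKT1-like cells of B6. Depth differed between the BALB/c classes, with medians of 14997 and 15478 UMIs per iNKT2-like, 10674 and 11755 per iNKT17-like and 6478.5 and 6786 per iNKT1-like cell. The part of depth in these class differences was not tested. The tenth of BALB/c iNKT2-like cells with the most UMIs of the gene held 61.0% and 68.2% of the Rln3 UMIs but 20.7% and 21.3% of the Il27ra UMIs. The variance over the mean of UMIs per cell was 6.24 and 7.06 for Rln3 and 1.65 and 1.62 for Il27ra in these cells. The B6 cells with Rln3 therefore differed from BALB/c cells in number more than in UMIs per positive cell among iNKT1-like cells, a comparison that was not tested.

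**Figure D2:**
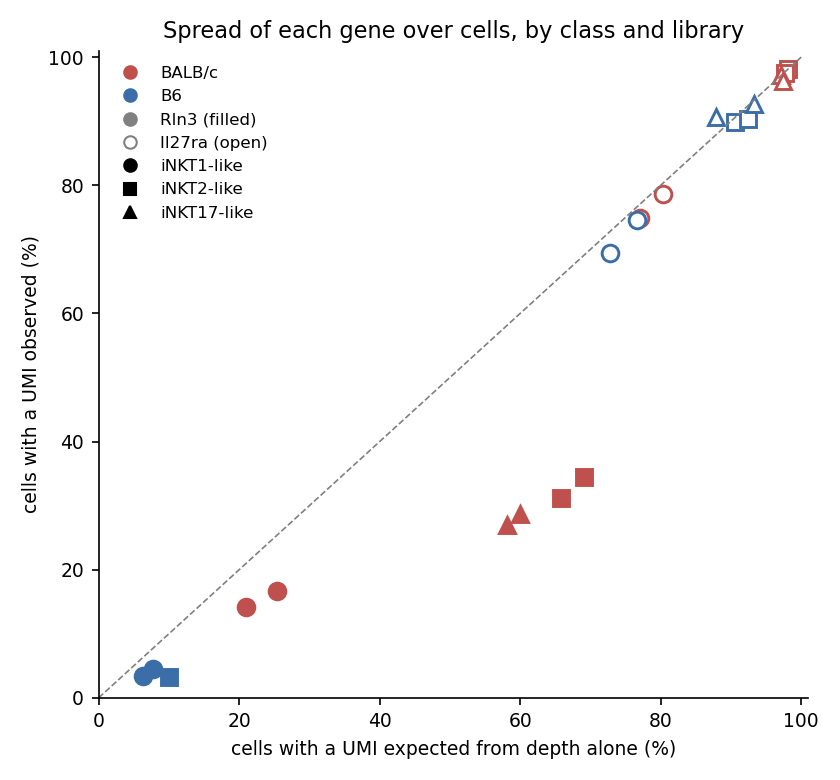
Percent of cells in which a UMI of Rln3 (filled) or Il27ra (open) was observed, against the percent that depth alone would give at the level of the class, by library and class (circle iNKT1-like, square iNKT2-like, triangle iNKT17-like). The Rln3 values of B6 iNKT17-like cells and of the iNKT2-like cells of B6 1 are not drawn, for too few UMIs. Il27ra points lie near the dashed line of equal values, while the BALB/c iNKT2-like points of Rln3 lie at 34.4% and 31.3% observed against 69.0% and 65.8% from depth.

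The genes were then compared cell by cell. A UMI of both was found in 434 and 353 BALB/c cells, where 380 and 287 would be if detection of the genes were unrelated in a library, a ratio of 1.14 and 1.23. In B6, 49 and 169 cells held both, where 48.4 and 159 would, a ratio of 1.01 and 1.07. The BALB/c ratios lay above both B6 ratios, with means of 1.19 and 1.04 and an exact two-sided permutation p of 0.33, the smallest that 2 libraries against 2 can give. Put as shares, Il27ra was found in 94.8% and 96.2% of BALB/c cells with Rln3 and in 79.1% and 73.8% of those without, and in 70.0% and 74.4% of B6 cells with Rln3 and 69.0% and 69.7% of those without. The ratio was also taken with depth or class held. After thinning to 3000 UMIs per cell it was 1.16 and 1.32 in BALB/c, against 0.852 and 1.07 in B6. Within 5 bins of depth it was 1.02 and 1.08 in BALB/c, against 0.918 and 1.00 in B6. The depth bins brought the BALB/c ratios nearer to 1 and the thinning did not. Within classes it was 0.999 and 1.04 in BALB/c, against 0.931 and 1.03 in B6, where the strains overlapped (exact permutation p = 0.667), and within classes and 5 bins of depth together 0.994 and 1.03 in BALB/c, against 0.888 and 0.999 in B6. In iNKT2-like cells, where nearly every cell had Il27ra, the ratio was 1.01 and 1.01 in BALB/c, and it was 1.11 (from 4 cells with both) and 0.932 in B6. A gene found in nearly every cell leaves the ratio little room, so iNKT1-like cells were also taken alone. Their ratio was 0.853 (30 cells with both, where 35.2 would be) and 1.15 (78, where 67.7 would be) in BALB/c, against 0.901 and 1.02 in B6, and the BALB/c libraries went in opposite directions.

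Levels say more than detection for a gene found in nearly every cell, so Il27ra was also compared between the cells of a class and library with and without Rln3, a choice made after seeing the data, with the library as a block. In BALB/c iNKT2-like cells, Il27ra stood at 397 and 343 CPM in the 306 and 221 cells with Rln3 and at 330 and 305 CPM in the 583 and 486 cells without it. The values with Rln3 lay above those without in both libraries and did not overlap them, and the medians of depth were similar, at 14652 and 15279 UMIs with Rln3 and 15189 and 15677.5 without. Il27ra was higher with Rln3 by 0.22 on the log2 scale (SE 0.06), with an adjusted p of 0.0268 in edgeR's quasi-likelihood test with Benjamini-Hochberg adjustment, in a comparison where 7.39% of genes were called (353 higher and 427 lower of 10556). In BALB/c iNKT17-like cells the levels were 418 and 366 CPM with Rln3 and 372 and 360 CPM without (0.11, adjusted p = 0.898 in edgeR; 1.18% of genes called). In BALB/c iNKT1-like cells they were 222 and 288 CPM with Rln3 and 252 and 248 CPM without (0.08, adjusted p = 0.993 in edgeR; 0.114% called), and the libraries went in opposite directions. B6 had too few cells with Rln3 for a fit in iNKT2-like cells (4 and 38), where Il27ra stood at 281 and 232 CPM with Rln3 and 184 and 200 CPM without.

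**Figure D3:**
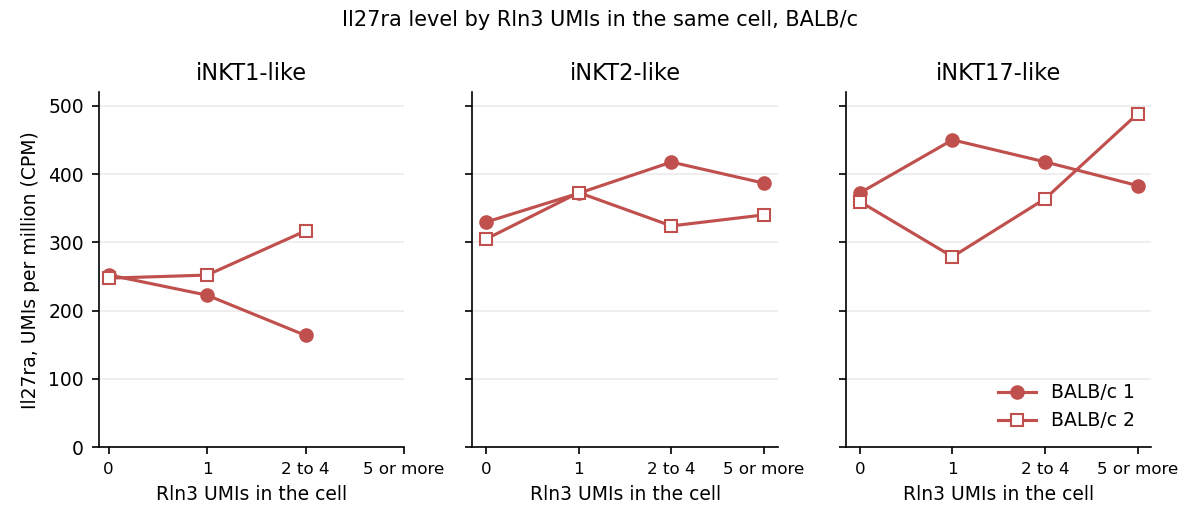
Il27ra level in CPM in BALB/c cells grouped by the number of Rln3 UMIs in the same cell, in panels for the iNKT1-like, iNKT2-like and iNKT17-like classes, with 1 line per library (filled circles BALB/c 1, open squares BALB/c 2) and groups of at least 10 cells. In iNKT2-like cells without Rln3 the level is 330 and 305 CPM, against 397 and 343 CPM over all cells with Rln3.

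The same fit showed which other genes went with Rln3 inside the BALB/c iNKT2-like class; the genes named here were chosen after their values were seen, most of them from the 10 of lowest p in each direction and Il13, Il4, Zbtb16 and Sox13 for their known roles. Plac8, a marker of iNKT2 cells, stood at 17.5 and 11.0 CPM in cells with Rln3 and 196 and 217 CPM in cells without, a log2 difference of -3.81 (SE 0.12, adjusted p = 1.22e-13 in edgeR). Thy1, a surface protein of T cells, stood at 53.0 and 55.1 CPM with Rln3 and 245 and 277 CPM without (-2.26, adjusted p = 1.98e-13). Igfbp4 (-2.95), Lmo4 (-1.54), the gut-homing chemokine receptor Ccr9 (-4.73), Klf2 (-1.56), which controls exit from the thymus, the interleukin-25 receptor chain Il17rb (-1.95) and Cd2 (-2.39) were also lower with Rln3. The cytokine Il13 was lower, at 37.7 and 30.5 CPM with Rln3 and 52.0 and 75.5 CPM without (-0.85, adjusted p = 0.000337), whereas Il4 (-0.17, adjusted p = 0.0976) and Zbtb16 (0.05, adjusted p = 0.694) did not pass.

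Higher in BALB/c iNKT2-like cells with Rln3 were Ikzf2, which encodes Helios (228 and 255 CPM with Rln3, 106 and 121 CPM without; 1.08, adjusted p = 1.03e-09 in edgeR), the integrin chain Itgae (285 and 233 CPM with, 126 and 126 CPM without; 1.04), App (1.31), Rnf43 (2.01), Cd7 (1.02), Cela1 (2.01) and the transcription factor Sox13 (1.03). Segments of the T cell receptor gamma locus were higher as well: Tcrg-V6 (84.0 and 34.7 CPM with, 15.4 and 6.54 CPM without; 2.45), Tcrg-V5 (2.15) and Tcrg-C1 (1.30). Near-identical gamma segments can share reads, so values of single segments are uncertain. The gamma-delta list summed to 1276 and 774 CPM in these cells with Rln3 and 514 and 478 CPM without. In BALB/c 1 much of this was Tcrg-C2, at 560.1 CPM with Rln3 and 119.6 CPM without, while in BALB/c 2 Tcrg-C2 stood at 104 CPM with Rln3 and 106 CPM without. Trdc had 0 and 0 UMIs with Rln3 and 1 and 0 UMIs without. The regulatory T cell list summed to 233 and 264 CPM with Rln3 and 119 and 136 CPM without. That sum is nearly all Ikzf2, while Tnfrsf4 was at 3.49 and 7.62 CPM with Rln3 and 10.6 and 13.6 CPM without, and Foxp3 and Ctla4 had 0 UMIs with Rln3. The B cell list, nearly all Ighm, summed to 35.1 and 35.3 CPM with Rln3 and 14.5 and 12.8 CPM without. The part of these lists in the result was not tested.

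Among BALB/c iNKT17-like cells, 61 genes were higher and 41 lower with Rln3. Segments of the T cell receptor were among the calls of lowest p, and some differed widely between the libraries. Trav13-2 stood at 17.2 and 262 CPM with Rln3 and 0.383 and 1.16 CPM without (7.21), and Trbv15 at 216 and 116 CPM with Rln3 and 6.51 and 30.2 CPM without (3.43). Trbv29 (-2.85), Trbv31 (-4.27) and Trbv3 (-5.35) were lower with Rln3. Thy1 was lower here too (275 and 97.2 CPM with Rln3, 478 and 513 CPM without; -1.32, adjusted p = 3.08e-11 in edgeR), as was the chemokine receptor Ccr6 (-2.22), and Gfra4 (1.44) and, near the threshold, Sox13 (0.61, adjusted p = 0.0495) were higher. In BALB/c iNKT1-like cells, 5 genes were higher and 4 lower, among them Tcrg-V5 (2.21).

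Read the other way, Rln3 was found in 44.0% and 42.9% of the BALB/c iNKT2-like cells that had no Plac8 UMI, and in 8.05% and 6.25% of those that had one. In B6, it was found in 3.06% and 6.55% of iNKT2-like cells without a Plac8 UMI and in 0.826% and 1.26% of those with one. Split by Thy1, Rln3 was found in 48.6% and 47.5% of BALB/c and 9.76% and 12.2% of B6 iNKT2-like cells without a Thy1 UMI. With a Thy1 UMI, the shares were 15.1% and 11.6% in BALB/c, against 0% and 1.27% in B6. Within each library, cells lacking Plac8 or Thy1 held Rln3 more often although they had fewer UMIs per cell (medians without Thy1 of 13658 and 13815 in BALB/c, against 9444 and 11544 in B6, and with Thy1 of 16880 and 17683 in BALB/c, against 16748 and 16851 in B6). In B6 1 this rested on few cells. Rln3 was found in 3 of 98 cells without and 1 of 121 with a Plac8 UMI. By Thy1, it was found in 4 of 41 cells without and 0 of 178 with a UMI. Plac8 and Thy1 were chosen from the BALB/c fit above, so their BALB/c values restate that fit. The strain gap remained in the cells without Thy1, where Rln3 stood at 131 and 121 CPM in BALB/c and 28.0 and 34.3 CPM in B6. The B6 values came from 12 and 89 UMIs.

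**Figure D4:**
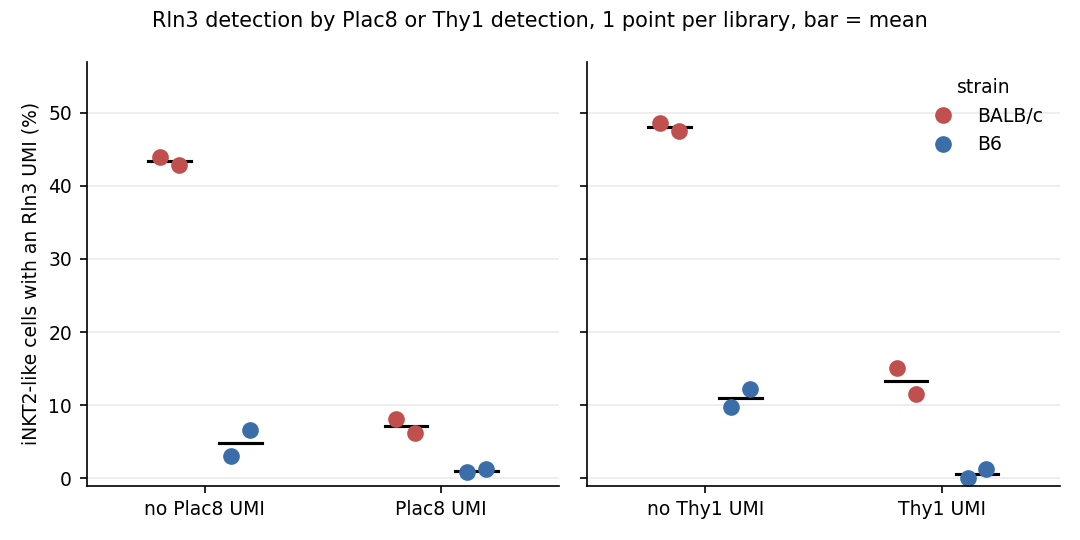
Percent of iNKT2-like cells with an Rln3 UMI, split by whether the cell had a Plac8 UMI (left panel) or a Thy1 UMI (right panel), with BALB/c left of B6, 1 point per library and a bar at the mean. BALB/c cells without Thy1 reach 48.6% and 47.5%, against 9.76% and 12.2% of B6 cells without Thy1 (4 of 41 and 26 of 213 cells).

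The B6 cells with Rln3 were also checked for transcripts marked by strain. For this, 8 genes found nearly only in B6 (such as Gpnmb and Oas1a) were picked after seeing the data, with at least 200 UMIs in each B6 library and at most 10 over both BALB/c libraries. A UMI of the 8 genes was found in 64.3% and 75.8% of B6 cells with Rln3 and in 67.4% and 72.2% of B6 cells without. The genes were chosen for being found in B6, so their presence in B6 cells follows from the choice. These shares are a description, and the origin of the Rln3 UMIs in B6 cells was not tested.

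Among 6349 genes with a mean of at least 20 CPM, those most like Rln3 over the 24 sums of 6 classes and 4 libraries, by Pearson correlation of log2(CPM + 1), were Ifi214 (0.86), BC004004 (0.84), the heat shock genes Hspa1a (0.82) and Hspa1b (0.79), which are near-identical copies and can share reads, and Uimc1 (0.78). In that order, their correlations were 0.91, 0.86, 0.81, 0.84 and 0.93 over the BALB/c sums. Over the B6 sums they were 0.68, 0.59, 0.47, 0.46 and 0.17. The ranking pools both strains, so the strain difference that chose Rln3 enters it. Il27ra was the 9th most like Rln3 (0.75), with 0.93 over the BALB/c sums and 0.39 over the B6 sums. The genes most like Il27ra were BC029722 (0.94), Fxyd5 (0.94), Ncf4 (0.93), Tmem64 (0.91) and the kinase gene Jak3 (0.91), and Rln3 was only 254th. Sums of a library share its cells and depth, so these correlations describe the sums only.

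The pair was also set beside its chromosomal neighbours. The files list 24 genes within 250 kb, and 21 besides Rln3 were tested. Il27ra and Podnl1 were higher in BALB/c, none was lower and 19 were not called, beside the 7.28% of all genes called. The median log2 fold change of the 21 genes was 0.04, against -0.02 over all genes. Podnl1, which encodes a leucine-rich repeat protein and starts at 84125989 on the plus strand, stood at 152 and 124 CPM in BALB/c and 58.2 and 62.2 CPM in B6, without overlap (1.23, SE 0.12, adjusted p = 0.0216 in edgeR's quasi-likelihood test with Benjamini-Hochberg adjustment). Without BALB/c 1 and without BALB/c 2, where edgeR called no gene of the genome, the log2 fold changes were 1.09 and 1.37 for Podnl1.

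The other tested neighbours did not pass the test. Strain values that did not overlap were common among them, also at small changes such as those of Zswim4 and Dcaf15. The share of all genes without overlap was not taken. Mri1 stood at 55.0 and 46.7 CPM in BALB/c and 88.0 and 79.0 CPM in B6 (-0.68, adjusted p = 0.0557 in edgeR). Gm26532 (1.26, adjusted p = 0.0658), 2210011C24Rik (1.32, 0.0734), Adgrl1 (-0.48, 0.0827), Palm3 (-1.47, 0.102), Prkaca (0.34, 0.108), Samd1 (0.35, 0.170) and Ccdc130 (-0.54, 0.198) were further from 0 than Asf1b (0.20), Zswim4 (0.18), D8Ertd738e (0.13), Rfx1 (0.04), C330011M18Rik (0.00) and Dcaf15 (-0.04). The others, Gm10644 (0.24), 4930432K21Rik (-0.20), Nanos3 (-0.28), Cc2d1a (-0.31) and Gm26887 (-2.22), did not pass either, and Gm26887 was at 0.534 and 0.764 CPM in BALB/c and 0.305 and 5.82 CPM in B6, high in B6 2 alone. The pair therefore lies in a stretch where fold changes go in both directions.

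**Figure D5:**
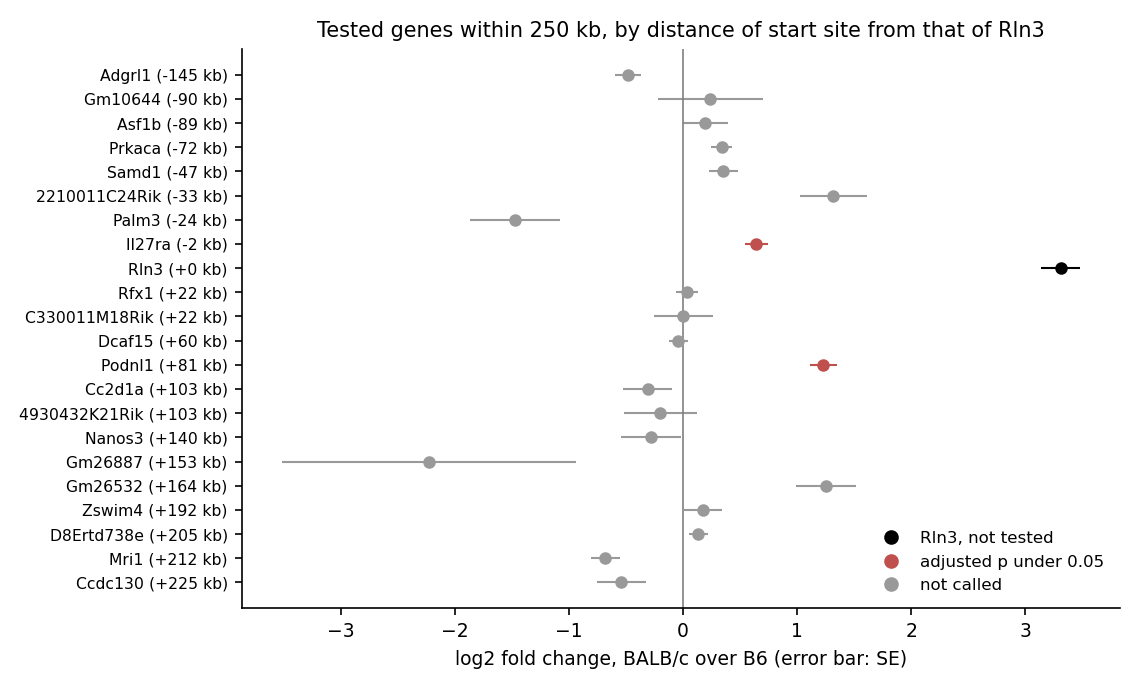
Log2 fold change of BALB/c over B6 (point, with its SE) over all kept cells for the tested genes within 250 kb, ordered by the distance of their start from that of Rln3. Il27ra (0.64) and Podnl1 (1.23) pass the test, Rln3 (3.31) is shown without a test, and the other genes are not called.

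Podnl1 also went with Rln3 in single cells of BALB/c. Within classes and 5 bins of depth, the cells with UMIs of both Rln3 and Podnl1 outnumbered those that separate detection gives. The ratio was 1.10 and 1.18 in BALB/c, against 1.11 and 1.07 in B6. For D8Ertd738e it was 1.00 and 0.995 in BALB/c, against 1.04 and 1.00 in B6. That gene was found in 83.4% and 84.1% of BALB/c cells, which leaves its ratio little room. Podnl1 was not alone, since less detected neighbours went in both directions in BALB/c. Their ratios were 1.19 and 1.42 for 2210011C24Rik, 1.19 and 1.12 for Zswim4, and 0.926 and 0.858 for Cc2d1a. In B6, 28 and 88 cells held both Rln3 and Podnl1, where 25.3 and 82.0 would be, and such ratios were not particular to Podnl1. Adgrl1 stood at 1.25 and 1.12 and Prkaca at 1.14 and 1.10 in B6. Il27ra stood at 0.888 and 0.999 in B6, and Asf1b at 0.674 in B6 2. In BALB/c iNKT2-like cells Podnl1 stood at 220 and 196 CPM with Rln3 and 151 and 128 CPM without (0.58, SE 0.06, adjusted p = 4.82e-06 in edgeR), and in BALB/c iNKT17-like cells at 205 and 252 CPM with Rln3 and 147 and 134 CPM without (0.67, adjusted p = 0.00013). Of the genes of the window, Podnl1 and Il27ra were each higher in BALB/c and higher in the Rln3-positive iNKT2-like cells of BALB/c.

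Of 13 genes of interleukin-27 receptor signalling, 12 were tested: 2 were higher in BALB/c, none was lower and 10 were not called, with a median log2 fold change of 0.03, where 7.28% of all genes were called. Beside Il27ra, the higher gene was Socs3, an inhibitor of gp130 signalling, at 30.4 and 23.1 CPM in BALB/c and 10.9 and 7.64 CPM in B6 (1.57, adjusted p = 0.0438 in edgeR's quasi-likelihood test). Il6st, which encodes the gp130 chain that pairs with the product of Il27ra, stood at 10.1 and 9.40 CPM in BALB/c and 8.78 and 9.56 CPM in B6, and the strains overlapped (0.12, adjusted p = 0.591). Of the kinases and transcription factors, Jak2 (-0.50, adjusted p = 0.0545) and Jak1 (-0.46, 0.0611) came nearest to the threshold, and Tyk2 (-0.43) and Stat3 (0.18) did not pass. The ligand chains were nearly absent: Il27 had 0 and 0 UMIs in BALB/c and 0 and 9 UMIs in B6, and Ebi3 had 20 and 36 UMIs in BALB/c and 26 and 9 UMIs in B6.

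Of 16 genes that interleukin-27 is known to induce in T cells, 14 were tested: 2 were higher in BALB/c, 2 were lower and 10 were not called, with a median of -0.23, beside 3.64% of all genes called higher and 3.63% lower. Il21, a cytokine gene, was higher at 12.0 and 10.3 CPM in BALB/c and 1.98 and 2.78 CPM in B6 (2.25, adjusted p = 0.0227 in edgeR), and Socs3 is on this list too. Tbx21, the regulator of iNKT1 cells, was lower at 20.5 and 33.1 CPM in BALB/c and 102 and 129 CPM in B6 (-2.07, adjusted p = 0.0308), as was Prdm1 at 0.757 and 1.12 CPM in BALB/c and 4.57 and 5.11 CPM in B6 (-2.32, adjusted p = 0.0307). Tbx21 is also a marker of the iNKT1-like class and Il21 led an iNKT2-like cluster, and the shares of these classes differed between the strains. Without BALB/c 1 and without BALB/c 2, where no gene was called in edgeR, the log2 fold changes were 2.16 and 2.36 for Il21, 1.37 and 1.74 for Socs3, -1.75 and -2.46 for Tbx21 and -2.05 and -2.64 for Prdm1.

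Of 13 receptors of the gp130 family, 6 passed the filter on low counts, 1 was higher and none lower, with a median of 0.02, where 7.28% of all genes were called. Il23r, a receptor chain of iNKT17 cells, was higher at 31.5 and 21.8 CPM in BALB/c and 7.51 and 10.6 CPM in B6 (1.58, adjusted p = 0.0413 in edgeR). Its log2 fold changes were 1.31 and 1.83 without BALB/c 1 and without BALB/c 2. Il23r is also a marker of the iNKT17-like class, which held 17.2% and 9.67% of BALB/c cells and 2.92% and 1.82% of B6 cells. The part of these shares in the call was not tested. Il6ra (1.35, adjusted p = 0.0895), Il12rb2 (-2.50, adjusted p = 0.0578) and Il11ra1 (-0.70) did not pass. Il31ra, a gp130-like receptor chain, had 0 and 0 UMIs in BALB/c and 2 and 53457 UMIs in B6, so that B6 2 stood apart at 721 CPM; it did not pass the filter and was not tested.

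Of the relaxin family, 9 genes are listed in the files and 2 ligands, Rln3 and Insl6, passed the filter on low counts. The receptors Rxfp3 and Rxfp4 and the ligand Rln1 had no UMI in any library, and Rxfp1 and Rxfp2 had at most 2 UMIs per library. Insl6, an insulin-like peptide gene known from the testis, stood at 9.35 and 8.90 CPM in BALB/c and 6.19 and 6.37 CPM in B6 (0.58, adjusted p = 0.0950 in edgeR). In B6 its levels were close to the 6.50 and 6.34 CPM of Rln3.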

How the data were processed

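The authors deposited, for each of the 4 libraries, UMI counts per gene and barcode, whole numbers that are not normalized. Cell Ranger 7.1.0 and mm10 are named in the submitters' processing notes. Per the file headers, BALB/c 1, BALB/c 2 and B6 1 carry version 6.0.0 and B6 2 carries 7.1.0, and the setting for intronic reads was not given in the sources used here.

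Barcodes with at least 500 genes, at least 1000 UMIs and at most 10% mitochondrial UMIs were kept, and doublets were marked by Scrublet score at 0.8% per 1000 barcodes (33 and 34 in BALB/c, 50 and 758 in B6). Cells were clustered with scanpy 1.11.5 and python-igraph 0.11.9 (2000 variable genes, 30 principal components, 15 neighbours, Leiden resolution 1.0). A cluster was named "X-like" by its marker list (a mean log2 fold of 0.3 or more, with 40% or more of the markers above 0.5), so classes may differ from the study's. For each library, counts were summed over all kept cells or over a class, where every library had 20 cells or more in it, and tested with edgeR 4.0.16 (TMM, filterByExpr, quasi-likelihood, strain as the only term unless a library block is stated) in R 4.3.3, at an adjusted p of 0.05 over all genes tested. CPM is counts per 1000000 UMIs of the summed cells. SE is the log2 fold change over the square root of its F statistic. UMIs of a 5' kit count transcript ends, so no length scaling was made. PCR copies count once.

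The members, gene lists and tests were chosen with earlier results of these data known. Named genes were the pair, the tested genes within 250 kb, up to 4 members of lowest p per list and the 5 genes most like each member; other named genes were chosen after their values were seen. Tests across genes were checked on simulated data. Alternatives were DESeq2 1.42.0, other normalization, filters, clusterings, a replicate block and leaving out each library.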

Additional observations from a re-analysis of the deposited data

Results flagged for a closer look

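The strain effect on Rln3 was larger in iNKT2-like than in iNKT1-like cells by 1.72 on the log2 scale (SE 0.21, BALB/c over B6 in each class). It stands here because the effect of 1 contrast differed between 2 classes of the same libraries. The pair was chosen for this strain difference, so the value is a description. In iNKT2-like cells Rln3 stood at 81.7 and 71.0 CPM in BALB/c and 3.14 and 6.36 CPM in B6, and in iNKT1-like cells at 46.3 and 34.5 CPM in BALB/c and 10.8 and 8.94 CPM in B6.

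The strain effect on Il27ra was also larger in iNKT2-like than in iNKT1-like cells, by 0.50 (SE 0.09, adjusted p = 0.000319 in edgeR's quasi-likelihood test with Benjamini-Hochberg adjustment). In iNKT2-like cells Il27ra stood at 352 and 317 CPM in BALB/c and 185 and 201 CPM in B6, and in iNKT1-like cells at 247 and 254 CPM in BALB/c and 212 and 194 CPM in B6. Most cells of these classes came from different clusters in the 2 strains, and the part of this in both values was not tested.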

How the results depend on the processing

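Of the values recomputed under the alternatives, 198 kept their direction and side of the threshold (or moved by less than the spread), 19 reversed, 12 lost and 13 gained a call and 40 moved otherwise; unless a cause is given here, the cause was not tested. The labels do not say whether the replicate numbers pair libraries across the strains. Same-numbered libraries deviated with a correlation of -0.26, which cannot settle this with 2 libraries per strain. With a replicate block 264 genes were called between the strains in place of 937, and with the numbers crossed 788. The block ended the call of Il27ra over all cells (0.64, adjusted p = 0.0862 in edgeR) and in iNKT0-like cells (1.16, adjusted p = 0.0735), and left 1 call each in the window and in interleukin-27 receptor signalling.

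Leaving out 1 library in turn, the strain difference of Rln3 ran from 3.11 to 3.49 over all cells, 1.81 to 2.25 in iNKT1-like and 3.77 to 4.63 in iNKT2-like cells, and its interaction from 1.52 to 2.77. That of Il27ra ran from 0.53 to 0.75 over all cells, 0.22 to 0.46 in iNKT1-like, 0.83 to 0.96 in iNKT2-like, 0.33 to 0.86 in iNKT17-like, 1.10 to 1.21 in iNKT0-like, 0.62 to 0.86 in proliferating and -0.14 to 0.29 in double-positive thymocyte-like cells, where it was -0.02 without B6 2. The class contrasts of Rln3 ran from -0.23 to 0.53 (iNKT2-like against iNKT1-like, -0.08 without BALB/c 1) and -0.41 to 0.47 (iNKT17-like against iNKT1-like, -0.29 without BALB/c 1), and those of Il27ra from 0.053 to 0.29 and 0.24 to 0.38. Calls ran from 0 to 11 in the window and among induced genes, 0 to 7 in receptor signalling, 0 to 5 in the gp130 family and 0 to 1 in the relaxin family besides Rln3. These ranges follow the calls over all genes, which were 0 of 13723 without BALB/c 1 and 0 of 13721 without BALB/c 2 in edgeR (unadjusted p under 0.05 for 1400 and 1644) and 2241 higher and 2962 lower of 13798 without B6 1. Il27ra by Rln3 in BALB/c iNKT1-like cells ran from -0.19 to 0.22.

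With DESeq2, which called 816 genes higher and 931 lower over all cells in place of 469 and 468, Il27ra passed in proliferating cells (0.74), the calls were 4 in the window, 4 in receptor signalling, 7 among induced genes and 3 in the gp130 family, and the Rln3 contrasts with iNKT1-like cells reversed to -0.49 (iNKT2-like) and -1.51 (iNKT17-like). Without a filter on low counts, Il27ra passed in iNKT17-like (0.60) and proliferating cells (0.73) and the gp130 family had 2 calls. With finer clusters, the Rln3 contrasts were -0.75 (iNKT2-like) and -0.035 (iNKT17-like) against iNKT1-like cells and 0.72 between iNKT17-like and iNKT2-like cells. The Rln3 strain difference in iNKT1-like cells was 1.61. Il27ra passed between iNKT17-like and iNKT2-like cells (0.38) and its interaction was 0.26. The finer iNKT2-like class left out the Rln3-led cluster, with 412 and 314 BALB/c cells of the main iNKT2-like class. That cluster held 47.3% and 45.0% of the BALB/c Rln3 UMIs, and its part in these values was not tested. With each cell given the class of its highest marker score, the Rln3 contrasts were -0.24 and -0.25, those of Il27ra -0.29 (iNKT17-like against iNKT1-like) and -0.33 (against iNKT2-like), Il27ra by Rln3 in BALB/c iNKT17-like cells was 0.72, and B6 iNKT17-like cells had 56 Rln3 UMIs in place of 0.

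Within BALB/c the Rln3 contrasts were 0.97 (iNKT2-like) and 0.87 (iNKT17-like), and those of Il27ra 0.42 and, between iNKT17-like and iNKT2-like cells, -0.0021. Within B6 they were -0.81 for Rln3 and -0.085 and 0.17 for Il27ra; B6 iNKT17-like cells, with no Rln3 UMI, gave no Rln3 value. The stricter cell filter gave a B6 share of Rln3 of 3.26%. The joint detection ratio in BALB/c was 1.05 within 5 bins of depth, 1.02 within classes, 1.01 within both 1.38 at 2 or more UMIs and 1.24 after thinning, and in B6 it was 0.959, 0.981, 0.943 and 1.13, and 0.960 after thinning. With 2 libraries per strain, the exact permutation p cannot go below 0.33, and B6 Rln3 values rest on 128 and 470 UMIs.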
